A study of Mus musculus with 6 samples.

Results

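The genes described here build and run the primary cilium, the single antenna-like projection of most vertebrate cells. They are the 36 of 23420 gene symbols in the count tables that bear an Ift or Bbs number, are Tctn1 to Tctn3, or belong to a short list of ciliary motors, train subunits, gate proteins and Hedgehog regulators. They were chosen by symbol, and the family was taken up because the level of Ift80 was already known to differ between these libraries. The spread between libraries is therefore given as a description, with no test. All 36 passed the filter on low counts, which 15284 symbols passed in all.

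RNA of tooth germs labelled E15.5 from C57BL/6 mouse embryos was sequenced in 6 libraries. There were 3 from Smad7-/- embryos, labelled as mutant in both copies of the gene for an inhibitor of TGF-beta and BMP signalling, and 3 from wild-type (WT) embryos. The labels name no other allele or agent. They do not say how the Smad7 allele was made, which teeth were taken, whether germs were pooled, or whether the libraries come from separate animals. The p-values therefore measure only the spread between these samples.

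A cilium has no ribosomes, so its proteins are carried in along microtubules by intraflagellar transport (IFT). A kinesin pulls trains of IFT-B and IFT-A complexes to the tip, and a dynein pulls them back. The BBSome, a coat complex, moves membrane proteins with the trains, and a transition zone at the base acts as a gate. In vertebrates the Hedgehog signal, which the tooth epithelium sends to the mesenchyme, is read through this organelle, and EVC and EVC2 are mutated in a human syndrome with abnormal teeth.

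Depth ran from 37591888 to 56575476 counts per library. Smad7, the targeted gene, stood at 2.13, 1.43 and 0.712 CPM (counts relative to the library's total, scaled by TMM) in Smad7-/- libraries 1, 2 and 3, against 21.4, 18.9 and 18 CPM in WT libraries 1, 2 and 3 (log2 fold change -3.80 ± 0.33 SE; edgeR adjusted p = 0.00749), so each library matched its label. That call was lost without Smad7-/- library 2 (-3.83, edgeR adjusted p = 0.0887). The libraries also stood apart across genotype. Smad7-/- libraries 1 and 2 and WT library 1 lay at -32.3, -15.2 and -16.9 on the first principal component of all tested genes, which held 33.5% of the variance, and Smad7-/- library 3 and WT libraries 2 and 3 at 15, 24.3 and 25.2. No label explains these sides, which are not groups of the study. Xist, which female cells express, was read at 365 CPM in Smad7-/- library 3 and 195 CPM in WT library 1, and at 0.202 CPM or less in the others. Markers listed for both tooth tissues were read: 7 of 7 epithelial and 8 of 8 mesenchymal ones passed the filter. The epithelial markers, Krt5 among them, summed to between 7980 and 9690 CPM in Smad7-/- libraries and between 9350 and 10300 CPM in WT libraries. The mesenchymal markers summed to between 484 and 514 CPM in Smad7-/- libraries and between 405 and 476 CPM in WT libraries. These sums do not measure the share of each tissue. Markers of multiciliated cells, which carry motile cilia built with many of the same parts, were near 0. Of 20 such markers 16 were matched by symbol, and they summed to between 9.13 and 11 CPM in Smad7-/- libraries and between 9.73 and 10.6 CPM in WT libraries. The defining factor Foxj1 stayed between 0.364 and 0.868 CPM, and Tekt4 had no count in any library. Rsph9, the most abundant of these markers, averaged 1.97 ± 1.13 CPM in Smad7-/- and 3.1 ± 0.44 CPM in WT (SD, n = 3).

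Promoters come first, since a class of transcription factors (RFX) is known to bind ciliary genes at a motif called the X-box. RefSeq promoter windows (250 bases before to 50 after the gene start, GRCm38.p6, the build called mm10) were found for 33 of the 36 genes; Ift80, Ift81 and Ift122 had none. The X-box arm GTTGCC, searched on both strands, occurred in 15 of these 33 windows (45.5%), against 12.5% of all 32851 promoter windows. The longer form, GTTNCC followed by GGNAAC with 1 or 2 bases between them, whose pattern is the same on both strands and can contain the arm, occurred in 4 (12.1%), against 0.718% of all windows. The promoters of the cilium genes held a median of 60% G and C, against 52.7% over all windows. Among windows with at least 48.3% G and C, the lowest value of the 33, the arm stood in 13.4% and the longer form in 0.888%. The degenerate X-box consensus, taken by name, matched 14 of 33 windows (42.4%), against 34.7% of all windows. A match is a description of these letters, and binding was not measured.

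The 4 windows with the longer form are shown with both forms in capitals, each on the strand of its gene, 5′ to 3′. They belong to a BBSome subunit, an IFT-B subunit and a pair of transition zone genes, at chr3:36613472-36613535 (reverse strand), chr16:49699182-49699271 (forward), chr5:122264411-122264449 (reverse) and chr19:40612334-40612396 (reverse).
Bbs7: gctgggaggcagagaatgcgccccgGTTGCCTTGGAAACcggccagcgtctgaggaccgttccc
Ift57: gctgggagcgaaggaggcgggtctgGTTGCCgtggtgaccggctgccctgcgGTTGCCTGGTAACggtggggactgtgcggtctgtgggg
Tctn1: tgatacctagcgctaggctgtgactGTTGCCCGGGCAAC
Tctn3: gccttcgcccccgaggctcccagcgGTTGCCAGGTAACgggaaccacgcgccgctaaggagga

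Ift172 and Dync2h1, described below as widely spread between libraries, had the arm close to their RefSeq starts, at chr5:31291084-31291139 and chr9:7177009-7177047 (both reverse strand). In Dync2h1 it lies on the other strand and reads GGCAAC. The RefSeq start of Dync2h1 lies inside the GENCODE span of the gene, which reaches to 7184446. Ttc21b, also spread between libraries, had a window without the arm, and Ift80, the most widely spread, had no window.
Ift172: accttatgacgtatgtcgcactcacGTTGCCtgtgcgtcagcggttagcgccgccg
Dync2h1: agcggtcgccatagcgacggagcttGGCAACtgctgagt

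No gene of the 36 differed between genotypes at the threshold. By edgeR 0 of 36 had an adjusted p under 0.05 (0.0262% of all genes tested did), and 0 had an unadjusted p under 0.05 (5.14% of all genes). By DESeq2 0 passed after adjustment (0.366% of all genes), and 1, Ift122, had an unadjusted p under 0.05 (5.72% of all genes). The standard errors of the log2 fold changes ran from 0.08 to 0.49 with a median of 0.13, against a median of 0.14 over all genes. The fold change lay below 0 for 27 of 36 (75%), against 50.9% of all genes tested, with a median of -0.07 against 0.00 over all genes. With the side on the first component as a covariate, 18 of 36 lay below 0 and the median was 0.00. The ranges of the genotypes were apart for 1 member, Tctn2 (2.78%, against 8.88% of all genes). With 1 library left out they were apart for 15 members without WT library 1 (27.2% of all genes), for 7 without Smad7-/- library 3 (24.8%), for 7 without WT library 3 (19.4%) and for 3 without Smad7-/- library 2 (18.6%).

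**Figure D1:**
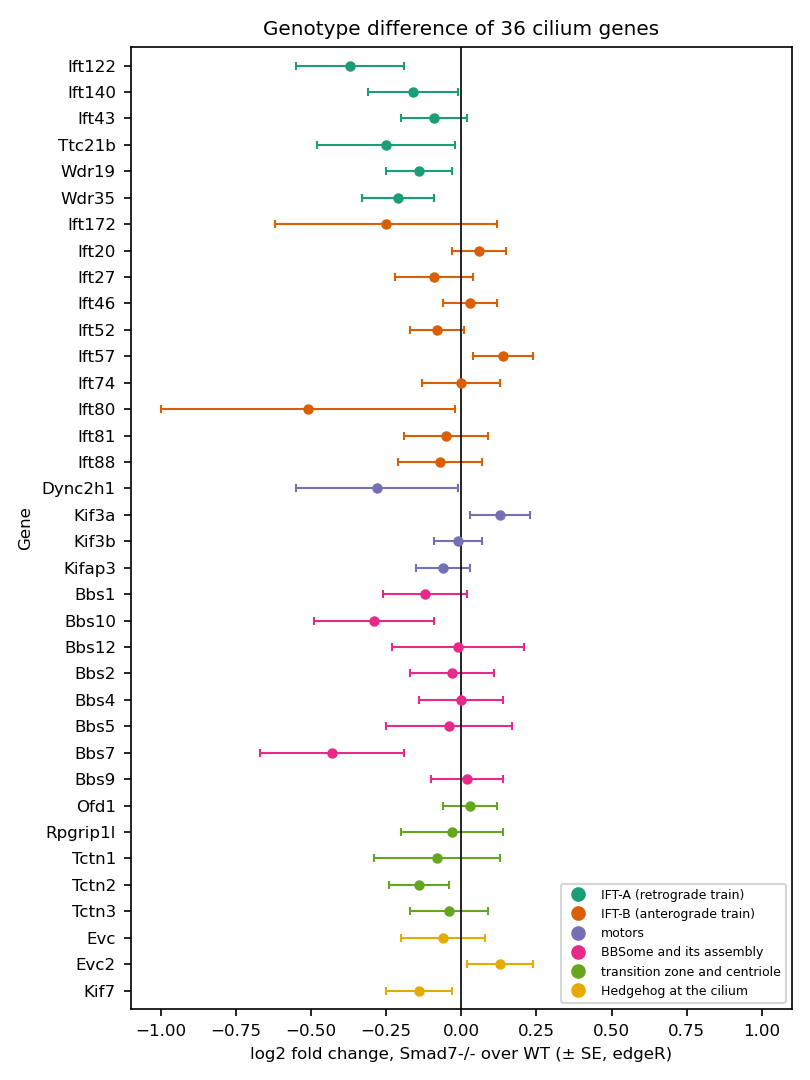
Log2 fold change of each of the 36 genes, Smad7-/- over WT (x axis), with the SE of the edgeR fit as bars and colours for roles (n = 3 libraries per genotype). Values run from -0.51 for Ift80 to 0.14 for Ift57, and all 6 IFT-A genes lie below 0; no gene passed the test.

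Over the 6 libraries the highest level was more than 2 times the lowest for 4 of 36 (11.1%: Ift80, Ift172, Bbs7 and Dync2h1), against 19.1% of all genes. Within a genotype it was so for Ift80 in Smad7-/- (9.57% of all genes) and for Ift80 and Ift172 in WT (9.6% of all genes). For 16 of 36 (44.4%) the levels in Smad7-/- libraries 1 and 2 and WT library 1 all lay below those in Smad7-/- library 3 and WT libraries 2 and 3, as they did for 13.7% of all genes. The opposite held for 1 member, Ift57 (2.78%), against 14.9% of all genes. Without Ift80, whose known level led to this family, 15 of 35 (42.9%) were lower in Smad7-/- libraries 1 and 2 and WT library 1. Between genotypes the fold change lay below 0 for 14 of the 16 (87.5%) and for 90.2% of the 2092 tested genes with this lower order. The gap between the sides ran from a ratio of 1.00 for Evc2, between the lowest library of the higher side and the highest of the lower side, to 2.06 for Ift80. The 36 genes summed to 980, 976 and 1080 CPM in Smad7-/- libraries 1, 2 and 3, and to 954, 1120 and 1100 CPM in WT libraries 1, 2 and 3. The count of 16 was 16 with RLE size factors and 18 with library totals. With 1 library left out it lay between 17 and 20. Fewer libraries make this order easier to meet, so these counts do not show that it is stable. The share of all genes was not taken for them.

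**Figure D2:**
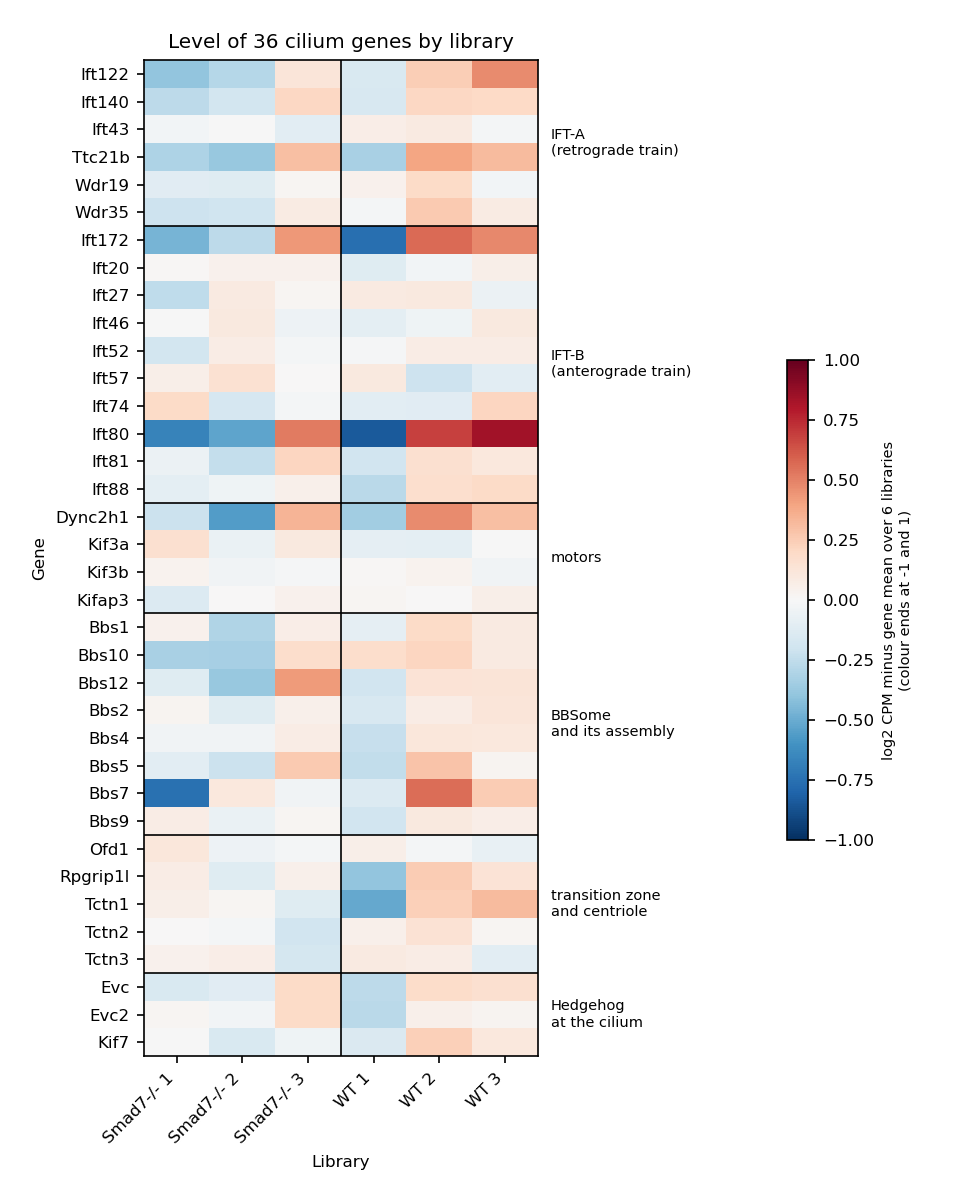
Level of each gene (rows, by role) in each library (columns, Smad7-/- left of WT), as log2 CPM minus the mean of that gene over the 6 libraries. For 16 genes Smad7-/- libraries 1 and 2 and WT library 1 all lie below the other 3 libraries, with the widest gaps in Ift80 and Ift172. Not all of these values lie below the mean of their gene.

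IFT-A, the complex of the return train, had fold changes below 0 for 6 of 6 genes, from -0.37 to -0.09, with a median of -0.18, and 0 of 6 were called by edgeR. Over all genes tested 50.9% lay below 0. The count was 6 of 6 under every one of the 16 alternatives run. These refit the same 6 libraries or leave 1 out, so they are not independent support. Ift122, an IFT-A core subunit (chromosome 6, 115853470 to 115926699, mm10, forward strand), had 17.2, 18.5 and 24.5 CPM in Smad7-/- libraries 1, 2 and 3, against 20.3, 26.7 and 31.3 CPM in WT libraries 1, 2 and 3. The groups overlapped, with Smad7-/- library 3 above WT library 1. Its mean was 20.1 ± 3.89 CPM in Smad7-/- and 26.1 ± 5.51 CPM in WT (SD, n = 3; log2 -0.37 ± 0.18 SE; edgeR adjusted p = 0.992). This was the smallest adjusted p of the 36.

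Ttc21b, which encodes another IFT-A subunit, had 8.68, 8.30 and 13.3 CPM in Smad7-/- libraries 1, 2 and 3, against 8.60, 14.2 and 13.4 CPM in WT libraries 1, 2 and 3. The highest library was 1.6 times the lowest within Smad7-/- and 1.65 times within WT. Ift140 and Wdr35, also IFT-A genes, showed the same order of libraries, with highest over lowest ratios of 1.39 and 1.38. The genes Ift43 and Wdr19 did not. Ift43, the most abundant IFT-A gene per length at 11.9 CPM per kilobase of merged exons, had 19.3, 19.6 and 18.2 CPM in Smad7-/- libraries and 20.5, 20.9 and 19.4 CPM in WT libraries 1, 2 and 3.

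IFT-B, the complex of the outward train, held genes of wide and of narrow range. Of 10 genes 4 had fold changes above 0 and 6 below, with a median of -0.06. The lower side was in Smad7-/- libraries 1 and 2 and WT library 1 for 4 (13.7% of all genes). Ift80 (chromosome 3, 68892499 to 69004570, reverse strand), a peripheral IFT-B subunit mutated in a human skeletal ciliopathy, had 8.65, 9.55 and 19.7 CPM in Smad7-/- libraries 1, 2 and 3, against 7.69, 22.1 and 24.6 CPM in WT libraries 1, 2 and 3. The raw counts were 325, 415 and 1137 in Smad7-/- libraries and 394, 1091 and 1173 in WT libraries. There were 3 low libraries and 3 high ones, with both genotypes on each side, and the WT libraries alone spanned 3.20-fold. The mean was 12.6 ± 6.16 CPM in Smad7-/- and 18.1 ± 9.11 CPM in WT (SD, n = 3; log2 -0.51 ± 0.49 SE; edgeR adjusted p = 0.999). The fold change was -0.88 without WT library 1, -0.99 without Smad7-/- library 3 and -0.01 with the side as a covariate, with no call in any of them.

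Ift80 starts 167 bases from Smc4, a condensin gene read in the opposite direction. Smc4 had 117, 114 and 163 CPM in Smad7-/- libraries 1, 2 and 3, against 136, 166 and 154 CPM in WT libraries 1, 2 and 3, the same order of sides. Its highest library was 1.46 times its lowest, against 3.20 times for Ift80. The next gene of the tables on the other side, 1110032F04Rik, 20335 bases away, had means of 0.128 ± 0.0185 CPM in Smad7-/- and 0.339 ± 0.0949 CPM in WT libraries (SD, n = 3; log2 -1.37 ± 0.48 SE; edgeR adjusted p = 0.827).

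Ift172, which encodes another peripheral IFT-B subunit, had 17, 19.5 and 31.7 CPM in Smad7-/- libraries 1, 2 and 3, against 13.9, 34.6 and 32.6 CPM in WT libraries 1, 2 and 3. The libraries split as for Ift80, 2.5-fold between the extremes. Its log2 fold change was -0.25 ± 0.37 SE (edgeR adjusted p = 0.999). The core subunit genes Ift81 and Ift88 kept the same order with highest over lowest ratios of 1.36 and 1.37.

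**Figure D3:**
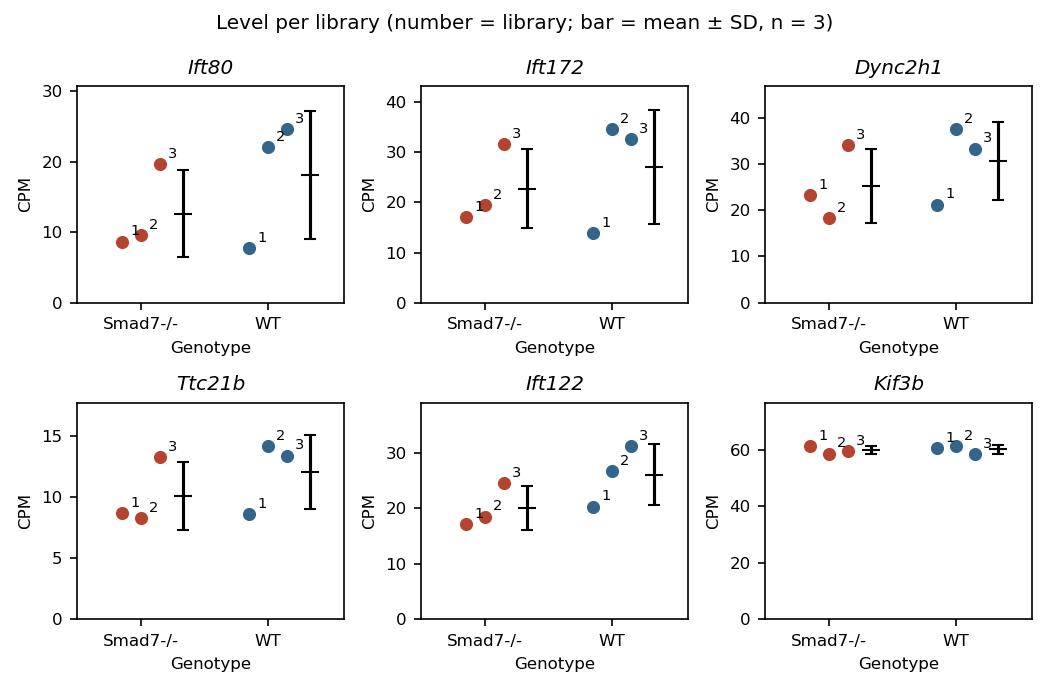
CPM (y axis) in each Smad7-/- library (left) and WT library (right) for 5 spread genes and for Kif3b, a steady one; numbers give the library, and bars the mean ± SD (n = 3). In the 5 spread genes Smad7-/- library 3 lies with WT libraries 2 and 3, and WT library 1 with Smad7-/- libraries 1 and 2. All 5 were taken from the genes with this order, so the figure does not show how common it is. Bbs7 and Tctn1, which spanned 2.47-fold and 1.77-fold with other orders, are not shown.

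The remaining 6 IFT-B genes varied by 1.13 to 1.30-fold over the 6 libraries. Ift20, which also acts at the Golgi, was the most abundant member per length, at 25.2 CPM per kilobase. It had 38.8, 39.6 and 39.5 CPM in Smad7-/- libraries 1, 2 and 3, against 35.3, 37.6 and 39.9 CPM in WT libraries 1, 2 and 3 (log2 0.06 ± 0.09 SE; edgeR adjusted p = 0.999). Ift57 had 44.3, 47.2 and 42.6 CPM in Smad7-/- libraries 1, 2 and 3, against 45.6, 36.8 and 39.5 CPM in WT libraries 1, 2 and 3. That is the reverse order of sides, and the genotypes overlapped (log2 0.14 ± 0.10 SE; edgeR adjusted p = 0.999). Ift52 and Ift46, core subunits, averaged 58.3 ± 5.20 and 59.5 ± 3.15 CPM in Smad7-/-, against 61.8 ± 2.04 and 58.4 ± 4.17 CPM in WT.

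Among the 4 motor genes 1 had the sides apart (over all genes 13.7% one way and 14.9% the other). Dync2h1, the heavy chain of the return dynein (chromosome 9, 6928503 to 7184446, reverse strand), had 23.3, 18.3 and 34.1 CPM in Smad7-/- libraries 1, 2 and 3, against 21.2, 37.5 and 33.3 CPM in WT libraries 1, 2 and 3. It spanned 2.05-fold with the sides apart (log2 -0.28 ± 0.27 SE; edgeR adjusted p = 0.999). Kif3b, a motor subunit of the outward kinesin, had 61.5, 58.7 and 59.6 CPM in Smad7-/- libraries 1, 2 and 3, against 60.6, 61.4 and 58.6 CPM in WT libraries 1, 2 and 3, a ratio of 1.05 between the extremes. This was the narrowest range of the 36.

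Kif3a, the partner motor subunit, had 43.1, 36.7 and 41.2 CPM in Smad7-/- libraries 1, 2 and 3, against 36.1, 36 and 38.3 CPM in WT libraries 1, 2 and 3 (log2 0.13 ± 0.10 SE; edgeR adjusted p = 0.999). Smad7-/- library 2 lay inside the WT range. Kifap3, which encodes the non-motor subunit, had 79.6, 87.8 and 90.4 CPM in Smad7-/- libraries 1, 2 and 3, against 88.7, 87.9 and 91.4 CPM in WT libraries 1, 2 and 3. The kinesin is also known to carry cargo outside cilia.

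The 8 genes with a Bbs number were low per length, from 1.42 to 3.56 CPM per kilobase. This range does not hold for all BBSome genes: Ttc8, not among the 8, stood at 5.92 CPM per kilobase. Bbs10, which with Bbs12 encodes chaperonin-like assembly factors, had the lowest CPM of the 36, with 3.88 ± 0.830 CPM in Smad7-/- and 4.78 ± 0.218 CPM in WT (SD, n = 3). Bbs2, the most abundant of the 8 per length, had 12, 10.8 and 12.2 CPM in Smad7-/- libraries 1, 2 and 3, against 10.5, 12.4 and 12.8 CPM in WT libraries 1, 2 and 3 (log2 -0.03 ± 0.14 SE; edgeR adjusted p = 1.00). Of the 8 genes 5 were lower in Smad7-/- libraries 1 and 2 and WT library 1 (13.7% of all genes). For Bbs1, Bbs2, Bbs4, Bbs5 and Bbs12 the gap between the sides was narrow, at ratios of 1.02, 1.02, 1.08, 1.1 and 1.19.

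Bbs7, which encodes a BBSome subunit, had another order of libraries, with 5.32, 9.59 and 8.68 CPM in Smad7-/- libraries 1, 2 and 3, against 8.10, 13.1 and 10.6 CPM in WT libraries 1, 2 and 3. Smad7-/- library 1 was the lowest and WT library 2 the highest, 2.47-fold apart, and the genotypes overlapped. Its log2 fold change was -0.43 ± 0.24 SE (edgeR adjusted p = 0.999), and it was -0.22 without Smad7-/- library 1 and -0.25 without WT library 2. Ttc8, which encodes a further BBSome subunit and was read through a list of pathway genes, had 19, 21 and 19.7 CPM in Smad7-/- libraries 1, 2 and 3, against 26.3, 22.1 and 26.2 CPM in WT libraries 1, 2 and 3. There the genotypes did not overlap (log2 -0.32 ± 0.11 SE; edgeR adjusted p = 0.827).

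Of the 5 transition zone and centriole genes, 0 had the sides apart in either direction. Over all genes 13.7% had them apart one way and 14.9% the other, so 0 of 5 says little. Tctn2, a tectonic of the transition zone, had 26.4, 25.9 and 23 CPM in Smad7-/- libraries 1, 2 and 3, against 27.3, 29.0 and 26.6 CPM in WT libraries 1, 2 and 3. All Smad7-/- values lay below all WT values, narrowly so for 26.4 CPM in Smad7-/- library 1 against 26.6 CPM in WT library 3. The highest library was 1.26 times the lowest, and the test did not pass (log2 -0.14 ± 0.10 SE; edgeR adjusted p = 0.999). Tctn1 and Rpgrip1l, a transition zone scaffold, were lowest in WT library 1 alone. Tctn1 had 9.53, 9.27 and 8.42 CPM in Smad7-/- libraries and 6.44, 10.8 and 11.4 CPM in WT libraries 1, 2 and 3. The library kit named in the labels does not record the strand, so reads cannot be assigned where exons overlap on opposite strands. Hvcn1 overlaps 19% of the Tctn1 exons, the antisense gene 9330171B17Rik 19.1% of those of Kif7, and the antisense gene Gm15518 7.9% of those of Ift57. Ofd1, an X-linked centriole gene, had 40.4, 35.9 and 36.7 CPM in Smad7-/- libraries 1, 2 and 3, against 38.7, 36.8 and 35.3 CPM in WT libraries 1, 2 and 3. Its level showed no order by the libraries with Xist, and its log2 fold change was 0.03 ± 0.09 SE (edgeR adjusted p = 1.00).

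Evc and Evc2 encode partners that sit at the base of the cilium and pass on the Hedgehog signal. Their genes lie head to head on chromosome 5, with 1604 bases between Evc (37289098 to 37336894, reverse strand) and Evc2 (37338499 to 37425055, forward strand). Evc had 34.9, 35.9 and 44.3 CPM in Smad7-/- libraries 1, 2 and 3, against 32.4, 44.1 and 43.4 CPM in WT libraries 1, 2 and 3. Evc2 had 47.5, 46.0 and 53.5 CPM in Smad7-/- libraries 1, 2 and 3, against 38.8, 48.4 and 47.6 CPM in WT libraries 1, 2 and 3. WT library 1 was the lowest for both genes of the pair. Their log2 fold changes were -0.06 ± 0.14 SE and 0.13 ± 0.11 SE. Kif7, a kinesin-like regulator of GLI factors at the ciliary tip, had 64.4, 58.1 and 62.7 CPM in Smad7-/- libraries 1, 2 and 3, against 58.3, 76.2 and 69.5 CPM in WT libraries 1, 2 and 3 (log2 -0.14 ± 0.11 SE; edgeR adjusted p = 0.999).

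Compared per length, the order of levels over all 6 libraries ran from Ift20, Kifap3 and Ift52, at 25.2, 21.8 and 21.4 CPM per kilobase, through Ift57 at 14.9 and Kif7 at 14.2, to Ttc21b at 1.19, Tctn1 at 1.12 and Rpgrip1l at 0.976. Exons of all annotated isoforms were merged, so genes with long alternative exons rank low. The merged exons had a median length of 5.74 kb over the 36 genes, against 4.35 kb over the 14325 tested genes with a length, and a median of 19.5 exons against 9. The 16 genes that were lower in Smad7-/- libraries 1 and 2 and WT library 1 had a median of 6.94 kb, and the other 20 had 4.23 kb. Of the 2092 tested genes with the same order, the 1956 with a length had a median of 5.46 kb. Across the 36 genes Spearman's rho of the ratio of the highest to the lowest library was 0.47 with exon length and -0.51 with mean CPM (n = 36). Over all genes with a length these were -0.13 and -0.68 (n = 14325). The genes share the same 6 libraries and their depth. Of the 16 genes, 13 had a promoter window and 8 of these held the arm; of the other 20, all with a window, 7 did.

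**Figure D4:**
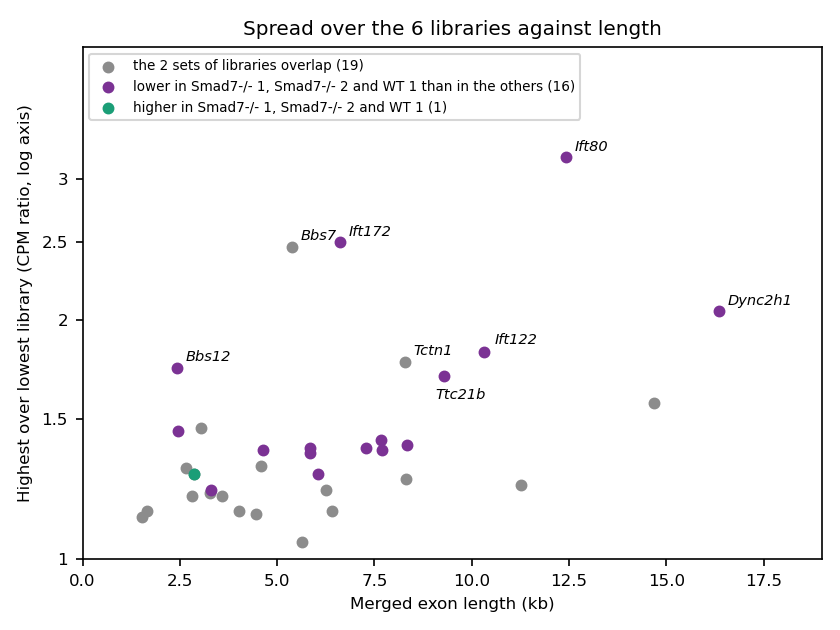
Ratio of the highest to the lowest library (y axis, CPM ratio, log axis) against merged exon length in kb (x axis) for the 36 genes, coloured by whether Smad7-/- libraries 1 and 2 and WT library 1 lie below, above or among the other 3. Ift80, Ift172 and Dync2h1, with ratios of 3.20, 2.5 and 2.05, lie in the set that is lower in those libraries. Bbs7, with a ratio of 2.47, does not.

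Other genes of the cilium, taken from 4 lists, gave 0 calls by edgeR. Of 21 tested IFT, BBSome and motor genes under other symbols, 16 lay below 0 (median log2 -0.08) and 1, Ttc8, had an unadjusted p under 0.05. Of 21 transition zone genes, 14 lay below 0 (median -0.03), of 13 ciliary GTPase and cargo genes 7 (median 0.00) and of 16 basal body genes 12 (median -0.07), with no unadjusted p under 0.05 among these. By edgeR the most abundant members of the last 2 lists were at log2 fold changes of 0.02 ± 0.10 SE for Unc119b, which carries lipid-modified cargo, and -0.12 ± 0.12 SE for Pcm1 of the centriolar satellites. Smad7-/- libraries 1 and 2 and WT library 1 were all below the others for 6, 7, 4 and 8 of the 21, 21, 13 and 16 genes. Over all genes tested that share was 13.7%, and 50.9% had a fold change below 0. Among the basal body list is Rfx3, an X-box factor named after its values were seen, with 12.6, 10.9 and 17.9 CPM in Smad7-/- libraries 1, 2 and 3, against 9.89, 18.3 and 18.5 CPM in WT libraries 1, 2 and 3.

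Genes of cell division shared this order of libraries. The list held 20 genes of the G2/M phase, when cilia are taken apart before mitosis. Of these 15 were lower in Smad7-/- libraries 1 and 2 and WT library 1 than in the others (13.7% of all genes). In the same libraries 0 were higher (14.9% of all genes). Between genotypes 90.2% of the 2092 tested genes with this lower order lay below 0, against 50.9% of all genes. Of the G2/M genes 20 of 20 lay below 0 (median log2 -0.15), with 0 called by edgeR and 0 at an unadjusted p under 0.05. They summed to 1370, 1260 and 2040 CPM in Smad7-/- libraries 1, 2 and 3, against 1600, 1900 and 1760 CPM in WT libraries 1, 2 and 3. Their most abundant member Top2a averaged 266 ± 81.8 CPM in Smad7-/- and 315 ± 16.5 CPM in WT (SD, n = 3). The part of these genes in the order of the cilium genes was not tested. Of 8 tested multiciliated markers 2 were lower and 2 higher in those libraries. Of 13 Hedgehog pathway genes 0 had the sides apart (over all genes 13.7% were lower and 14.9% higher). Between genotypes 0 of these 13 were called by edgeR and 3 had an unadjusted p under 0.05, against 5.14% of all genes. The fold change lay above 0 for 11 of 13, and genotype ranges were apart for 5 (38.5%, against 8.88% of all genes). Hhip, which encodes a decoy receptor, had 136, 145 and 182 CPM in Smad7-/- libraries 1, 2 and 3, against 101, 77.3 and 108 CPM in WT libraries 1, 2 and 3 (log2 0.69 ± 0.15 SE; edgeR adjusted p = 0.521). Shh, the ligand, had 449, 380 and 438 CPM in Smad7-/- libraries 1, 2 and 3, against 552, 598 and 488 CPM in WT libraries 1, 2 and 3 (log2 -0.37 ± 0.11 SE; edgeR adjusted p = 0.696).

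**Figure D5:**
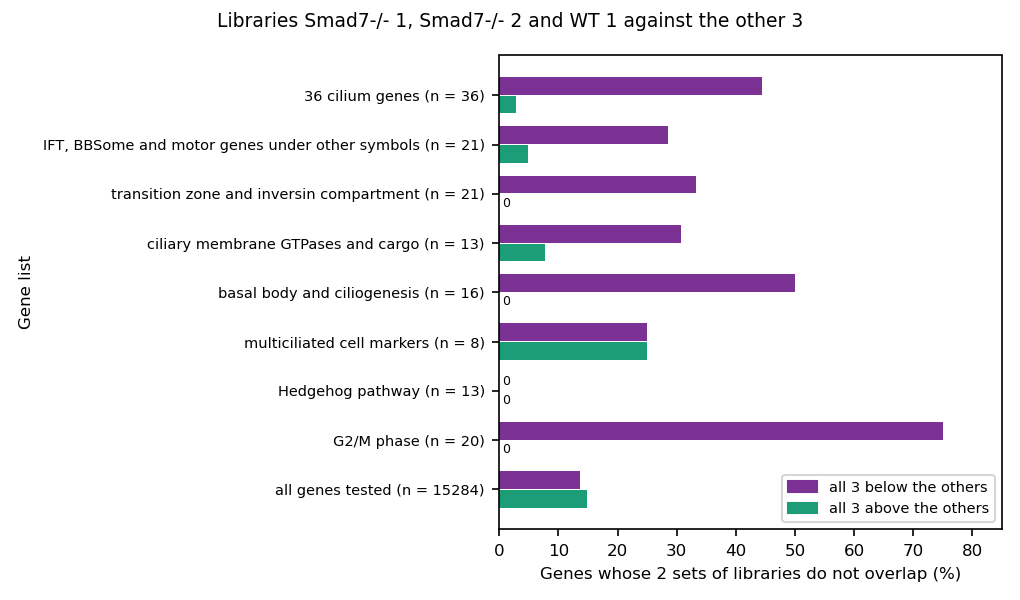
Share of the tested genes of each list (x axis, percent; n beside the name) for which Smad7-/- libraries 1 and 2 and WT library 1 all lie below or all lie above the other 3 libraries. The 36 cilium genes stand at 44.4% below and 2.78% above, all genes tested at 13.7% and 14.9%; the lists were not tested against each other.

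In bulk RNA, fewer cells of a type and less RNA per cell cannot be told apart. By edgeR 0 genes were called in any list of cell type markers. All 7 dental epithelium markers lay below 0 (median log2 -0.13). Of these 1, Sp6, had genotype ranges apart (8.88% of all genes) and an unadjusted p under 0.05 (5.14% of all genes). The 4 macrophage markers all lay above 0, each with an unadjusted p under 0.05 (5.14% of all genes). These markers summed to between 103 and 117 CPM in Smad7-/- libraries and between 64.0 and 83.5 CPM in WT libraries. Of the 8 dental mesenchyme markers 7 lay above 0 (median log2 0.45). Genotype ranges were apart for 6 (8.88% of all genes) and 5 had an unadjusted p under 0.05 (5.14% of all genes). They summed to between 484 and 514 CPM in Smad7-/- libraries and between 405 and 476 CPM in WT libraries, a sum led by Dlx2, the member below 0, with 220 ± 20.9 CPM in Smad7-/- and 234 ± 44.4 CPM in WT (SD, n = 3). Of the red blood cell markers 3 of 4 were matched, summing to between 14.6 and 17.3 CPM in Smad7-/- libraries and between 19 and 33.5 CPM in WT libraries. Endothelial markers summed to between 240 and 278 CPM in Smad7-/- libraries and between 177 and 264 CPM in WT libraries, neuron markers to between 278 and 348 CPM in Smad7-/- libraries and between 321 and 361 CPM in WT libraries, and skeletal muscle markers stayed at or below 4.37 CPM. The part of these cells in the genotype values of the cilium genes was not tested.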

How the data were processed

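The authors deposited raw counts per gene symbol, 1 table per library, whole numbers with no normalization. HISAT2, featureCounts, DESeq2 and the mm10 build are named in the submitters' processing notes, with versions not given in the sources used here. Of the 23420 symbols, 27 read as dates; they held at most 0.223% of a library's counts.

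All fits used the 6 libraries and no covariate. Genes were kept by filterByExpr (minimum count 10, total 15; 15284 genes), scaled by TMM and tested in R 4.3.3 with edgeR 4.0.16 (glmQLFit, robust, and glmQLFTest). P-values were corrected across every tested gene by the Benjamini-Hochberg method, with a threshold of 0.05. Log2 fold changes are Smad7-/- over WT. Alternatives were DESeq2 1.42.0, limma-voom (limma 3.58.1), other scalings, filters and covariates, and leaving out each library. The scripts were tested on simulated data. Positions and merged exons came from GENCODE M21, promoters from RefSeq.

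The members and gene lists were chosen with earlier results of these data known, so lists are described by counts and medians without a test. Genes named with values were those with an unadjusted p under 0.05, the 2 largest changes each way among members averaging 5 CPM or more, the most abundant member of each role per length, Ift80 with its neighbours, and members averaging under 1 CPM (there were none). Of a pathway list up to 2 genes were named, by unadjusted p under 0.05 or else by abundance. The gene this picks from the transition zone list is not reported here. Others were chosen after their values were seen: Foxj1, Tekt4, Dlx2, Ift81, Ift88, Ift122, Ift172, Dync2h1, Ttc21b, Wdr19, Rpgrip1l, Ift140, Wdr35, Kif3b, Ift46, Ift52, Tctn1, Tctn2, Bbs10, Evc, Evc2 and Rfx3. Counts without molecular identifiers are not independent molecules.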

Additional observations from a re-analysis of the deposited data

How the results depend on the processing

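Under the 16 alternatives edgeR, DESeq2 and limma-voom called 0 of the 36 genes (35 with the filter at 5 CPM, which dropped Bbs10). The median log2 fold change lay between -0.15 and 0.00, and with 1 library left out between -0.15 and -0.02. The number with an unadjusted p under 0.05 was 0 in the fit as reported, 1 by DESeq2 (Ift122), 1 with the side on the first component as a covariate (Evc2) and 2 with the replicate number as a block (Bbs7 and Ift122, 0 called). With 1 library left out it ran from 0 to 6. It was 5 without WT library 1 (Bbs7, Ift122, Ift172, Ift80 and Kif7) and 6 without Smad7-/- library 3 (Bbs10, Dync2h1, Ift122, Ift140, Ttc21b and Wdr35). The share of all genes with an unadjusted p under 0.05 was not taken for these fits. These counts therefore have no background to be read against, and the cause was not tested. The genotype ranges were apart for 1 gene as reported, 2 with library totals, and 1 to 15 with 1 library left out (15 without WT library 1), where 11.9% to 27.2% of all genes were apart; the cause was not tested. Over the 36 genes, 9 turned sign with the side as a covariate and 2 to 9 with 1 library left out. Single genes were followed for the 10 named by the rule, among which signs turned for Bbs2 (0.04 with the side as a covariate; -0.11 to 0.03 with 1 library left out, above 0 without WT library 2 or 3 or Smad7-/- library 2) and for Ofd1 (-0.02 to 0.06 with 1 library left out, not above 0 without WT library 3 or Smad7-/- library 1). The number of genes below 0 ran from 18 to 31. Residuals of libraries of the same number correlated at 0.169, -0.034 and 0.093, and 3 of 6 libraries correlated best with their own number, so the numbers are not taken as pairs. The Smad7 call was lost without Smad7-/- library 2 (-3.83).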
